A study of Rattus norvegicus with 12 samples.

Results

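Arginine is turned into ornithine and then into the polyamines by a short chain of enzymes, and 10 genes of that chain and its upstream and regulatory steps were followed in N27 cells exposed to the insecticide fipronil. The genes were Arg1, Arg2, Ass1, Odc1, Oaz1, Azin1, Amd1, Srm, Sms and Sat1, represented by 16 probes and taken from 13542 genes and transcripts tested. They were chosen on earlier results of the same arrays as well as on their place in the pathway, so their values are given as a description without a test. N27 is a dopaminergic neural line from rat. The fipronil group is 6 samples treated at 25 µM over 24 h, and the control group is 6 samples left untreated. Each RNA was labelled with Cy3 and hybridised to a one-colour Agilent array. All samples share the line and the extraction with Trizol. The labels do not say whether samples of a group came from separate cultures, so the spread between them may be technical, nor whether control cells received a vehicle.

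The 12 arrays lay on 3 slides. Slide 1 held fipronil replicates 7 and 8 with control replicates 2 and 3, slide 3 held fipronil replicates 1 to 4 alone, and slide 2 held control replicates 5 to 8 alone. Slide and treatment therefore nearly coincide, and differences on slide 1 alone are set beside those over 12 arrays. The 75th percentile of the processed signal ran from 245.1 to 278.8 on slide 1, from 378.7 to 471.8 on slide 2 and from 111.4 to 140.4 on slide 3. Signals below are log2 values minus the log2 of the array's own 75th percentile, so a value of 0 is a signal at that percentile. Such a value depends on the probe, so a difference in signal between genes is not read as a difference in transcript level. Signals of different genes were ranked or summed only to choose genes to name and to follow a marker list from array to array.

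The markers of the labelled cell type were measured in part. Of 8 dopaminergic markers, 2 could be tested, Th and Aldh1a1, and 4, Slc6a3, Ddc, Pitx3 and Foxa2, were not well above background on any array. Th, the rate-limiting enzyme of dopamine synthesis, was well above background on all 6 fipronil and all 6 control arrays. The tested dopaminergic markers summed to 0.249 to 0.543 times the array's 75th percentile in fipronil samples and 0.389 to 0.575 times in controls, and the tested neuronal markers to 0.449 to 0.63 and 0.328 to 0.484 times. Of 6 neuronal markers, Tubb3 and Ncam1 could be tested, and Map2, Rbfox3, Snap25 and Syp were not well above background on any array. Of these 4 tested markers Ncam1 passed the limma threshold, higher by 0.73 on the log2 scale (adjusted p 0.0171) and by 0.25 on slide 1. Tubb3 differed by -0.35 (limma adjusted p 0.677) and by 1.09 on slide 1, Th by -0.48 (limma adjusted p 0.152) and by 0.10 on slide 1, and Aldh1a1 by -0.84 (limma adjusted p 0.0678) and by -0.98 on slide 1. Aldh1a1 was well above background on 2 of 6 fipronil and all 6 control arrays. It could thus be tested through the controls. Nothing is read from its difference, nor from the dopaminergic sums above, which include it. Tubb3 was well above background on 4 fipronil and 5 control arrays. Of 5 astrocyte markers, Aldoc alone could be tested, and Gfap, Slc1a3 and S100b were not well above background on any array. Arg1 is also a marker of liver and of alternatively activated macrophages. All 4 hepatocyte markers, Alb, Apoa1, Ttr and Tat, were not well above background on any array. Of 9 macrophage and microglia markers, 6 were likewise not well above background on any array, Aif1, Itgam, Ptprc, Csf1r, Mrc1 and Adgre1. The other 3, Cx3cr1, Cd68 and Cd14, were measured on all arrays and summed to 1.13 to 1.39 times the 75th percentile in fipronil samples and 1.18 to 1.36 times in controls. The part of these cell types in any difference below was not tested.

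As background, arginases split arginine into urea and ornithine, and argininosuccinate synthase (Ass1) makes the precursor from which arginine is rebuilt out of citrulline. Ornithine decarboxylase (Odc1) turns ornithine into putrescine, and spermidine synthase (Srm) and spermine synthase (Sms) extend it with aminopropyl groups. Those groups come from decarboxylated S-adenosylmethionine, which the enzyme encoded by Amd1 supplies. Polyamines bind nucleic acids, are needed for growth, and limit their own synthesis through antizyme, which sends ornithine decarboxylase to the proteasome. In neural cells they also act on ion channels, and arginine is shared with nitric oxide synthesis.

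The probe sequences matter here because Arg1 and Amd1 each rest on a single probe, whereas Sms and Srm each have a pair of probes that share bases. The first 30 of 60 bases are given for the Arg1 and Amd1 probes. For the other probes a 30-base stretch is given, with the bases shared by the pair in capitals. The Arg1 gene lies on chromosome 1, Amd1 on chromosome 20, Sms on chromosome X and Srm on chromosome 5 of the rat assembly GRCr8.
Arg1, bases 1 to 30: aggagttaaaatacacagtgatgtcaagtg
Amd1, bases 1 to 30: aaggcggactagtgatctagtgtgattaca
Sms brightest probe, bases 31 to 60: aaaatTTGGTGCTTTTAAAGGTTTAAGAAG
Sms second probe, bases 1 to 30: TTGGTGCTTTTAAAGGTTTAAGAAGagtga
Srm brightest probe, bases 1 to 30: gctcTGTACAGCACCACCTATGCCCTGTGA
Srm second probe, bases 1 to 30: TGTACAGCACCACCTATGCCCTGTGACCCA
The Sms pair overlaps by 25 bases in all, and the Srm pair by 56. All 16 probes were well above background on all 12 arrays. The annotation names pseudogenes of Odc1 (10), Amd1 (3), Sms (2), Oaz1 (2) and Ass1 (2), and whether their transcripts reach these probes was not tested.

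Arg1, the cytosolic arginase best known from the urea cycle of the liver, was lower in every fipronil sample than in any control. Its log2 signal was -2.21, -2.35, -3.51 and -2.16 in fipronil replicates 1 to 4 and -2.31 and -2.09 in fipronil replicates 7 and 8. In controls it was -0.63 and -1.32 in replicates 2 and 3, and -1.20, -1.38, -1.32 and -1.34 in replicates 5 to 8. The groups did not overlap, with fipronil replicate 3 far below the other fipronil samples and control replicate 2 far above the other controls. Arg1 averaged -2.44 ± 0.53 in fipronil samples and -1.20 ± 0.29 in controls (SD, n = 6 each), a difference of -1.24 ± 0.23 (SE), or 2.36-fold lower. Without fipronil replicate 3 the difference was -1.03, and without control replicate 2 it was -1.13. On slide 1 alone it was -1.23, and between fipronil on slide 3 and control on slide 2 it was -1.25, so both ways of pairing slides gave nearly the same value. Each of these values includes an array far from its group, control replicate 2 on slide 1 and fipronil replicate 3 on slide 3. Their closeness therefore does not fix the size of the difference.

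The Arg1 signal was dim with fipronil, and the size of its difference depended on a constant added to the signals. Before scaling, its processed signal was 12.3 to 57.5 in fipronil samples and 107.6 to 189.5 in controls. Set against the lowest signal called well above background on the same array, it was 1.12 to 4.34 times as bright in fipronil samples and 9.04 to 14.2 times in controls. The lowest of these was fipronil replicate 3, which stood just above background. With a normexp background, which models signal and background jointly, and the offset of 50 that is added after it, the Arg1 difference was -0.39 with 75th percentile scaling, under which the median of all genes was 0.17, and -0.73 with quantile normalization. Without the offset, an alternative chosen after seeing the data, it was -1.06 and -1.18 in that order. Arrays of bulk RNA cannot tell less transcript per cell from fewer cells that express it.

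Arg2, the mitochondrial arginase, did not separate the groups. Its log2 signal had a lowest value of -2.45, a median of -1.62 and a highest value of -0.93 in fipronil samples, against -1.73, -1.53 and -1.41 in controls. The controls lay inside the range of the fipronil samples. Arg2 averaged -1.70 ± 0.54 in fipronil samples and -1.54 ± 0.11 in controls (SD, n = 6 each), a difference of -0.16 ± 0.21 (SE). The sign depended on the slide, with 0.46 on slide 1 and -0.47 between slides 3 and 2.

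Ass1, on the arginine-making side, was 0.82 at its lowest, 1.20 at the median and 1.95 at its highest in fipronil samples, against 1.35, 1.62 and 1.86 in controls. The groups overlapped, the highest value being that of fipronil replicate 8. Its mean was 1.26 ± 0.38 in fipronil samples and 1.61 ± 0.22 in controls (SD, n = 6 each), a difference of -0.35 ± 0.17 (SE). On slide 1 the difference was 0.19, and between slides 3 and 2 it was -0.62.

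**Figure D1:**
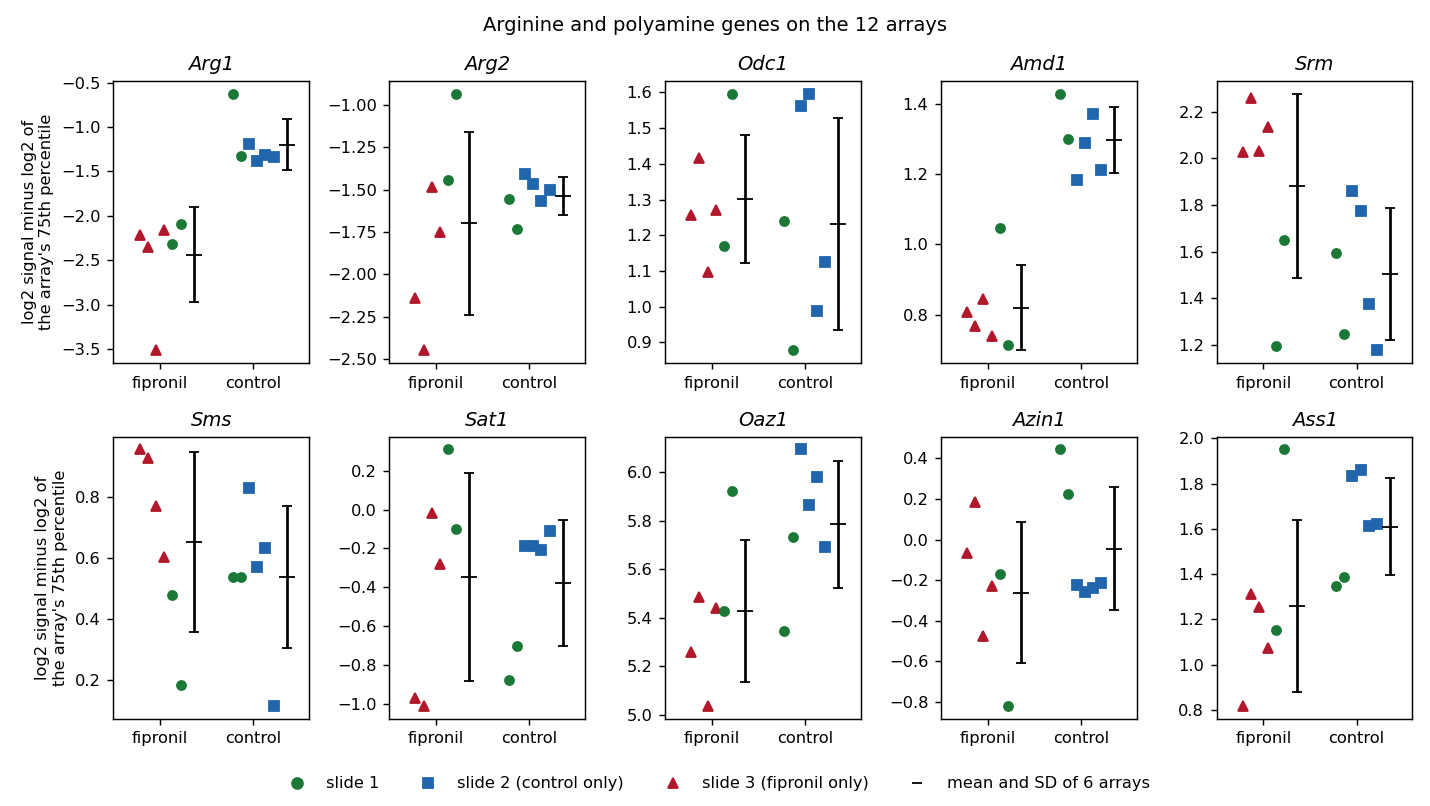
Log2 signal minus the log2 of the array's 75th percentile for the 10 genes, 1 point per array, fipronil left and control right in each panel, with the symbol giving the slide and the bar the mean and SD of 6 arrays. Arg1 and Amd1 are the panels with no overlap between groups, and the vertical scale differs between panels.

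Odc1, the first enzyme of polyamine synthesis and a very short-lived protein, overlapped widely between groups. Its brightest probe read 1.10, 1.26 and 1.6 in fipronil samples (lowest, median and highest) and 0.88, 1.18 and 1.59 in controls. The means were 1.30 ± 0.18 in fipronil samples and 1.23 ± 0.30 in controls (SD, n = 6 each), a difference of 0.07 ± 0.15 (SE), with 0.33 on slide 1 and -0.06 between slides 3 and 2. A second probe gave -0.27 ± 0.20 (SE), with 0.06 on slide 1, so the sign of the Odc1 difference over 12 arrays depended on the probe.

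Oaz1 encodes antizyme, which binds ornithine decarboxylase and marks it for degradation, and it overlapped between groups. It read 5.04, 5.43 and 5.92 in fipronil samples (lowest, median and highest) and 5.34, 5.80 and 6.09 in controls. The means were 5.43 ± 0.29 in fipronil samples and 5.79 ± 0.26 in controls (SD, n = 6 each), a difference of -0.36 ± 0.16 (SE). The difference was 0.13 on slide 1 and -0.60 between slides 3 and 2, so the lower mean came from the slides that held 1 treatment each.

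Azin1, the inhibitor that draws antizyme away from ornithine decarboxylase, showed the reverse order of slides. Its lowest, median and highest values were -0.82, -0.20 and 0.19 in fipronil samples and -0.26, -0.22 and 0.44 in controls. Azin1 averaged -0.26 ± 0.35 in fipronil samples and -0.04 ± 0.30 in controls (SD, n = 6 each), a difference of -0.22 ± 0.18 (SE). On slide 1 it was -0.83, while between slides 3 and 2 it was 0.09. All 4 controls on slide 2 lay between -0.26 and -0.21, and both controls on slide 1 lay above them.

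Amd1, S-adenosylmethionine decarboxylase, was the other gene whose groups did not overlap. Fipronil replicates 1 to 4 read 0.81, 0.77, 0.84 and 0.74, and fipronil replicates 7 and 8 read 1.05 and 0.71. Control replicates 2 and 3 read 1.43 and 1.30, and control replicates 5 to 8 read 1.18, 1.29, 1.37 and 1.21. Every fipronil value was lower than every control value, the nearest being fipronil replicate 7 and control replicate 5. Amd1 averaged 0.82 ± 0.12 in fipronil samples and 1.30 ± 0.09 in controls (SD, n = 6 each), a difference of -0.48 ± 0.10 (SE), or 1.39-fold lower. On slide 1 the difference was -0.49, and between slides 3 and 2 it was -0.48. Its signal was well away from background, at 189.7 to 508.3 in fipronil samples and 662.4 to 1222 in controls before scaling.

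Srm, spermidine synthase, had a higher mean with fipronil that came from slide 3. Its brightest probe read 1.19, 2.03 and 2.26 in fipronil samples (lowest, median and highest) and 1.18, 1.48 and 1.86 in controls, so the groups overlapped. The means were 1.88 ± 0.39 in fipronil samples and 1.5 ± 0.28 in controls (SD, n = 6 each), a difference of 0.38 ± 0.19 (SE). All 4 fipronil samples of slide 3 lay above all controls, but the difference was 0.57 between slides 3 and 2 and 0.0013 on slide 1. The overlapping second probe shown above gave 0.38 ± 0.20 (SE), another gave 0.38 ± 0.18 (SE), and the dimmest gave -0.02 ± 0.19 (SE). On slide 1 these 3 probes gave -0.08, 0.11 and 0.03 in that order.

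Sms, spermine synthase, gave different signs with different probes. The brightest read 0.18, 0.69 and 0.96 in fipronil samples (lowest, median and highest) and 0.12, 0.56 and 0.83 in controls. It averaged 0.65 ± 0.29 in fipronil samples and 0.54 ± 0.23 in controls (SD, n = 6 each), a difference of 0.12 ± 0.16 (SE), with -0.21 on slide 1. The second probe, which shares 25 bases with it, gave -0.20 ± 0.11 (SE), with -0.28 on slide 1. The remaining probe gave -0.44 ± 0.14 (SE), with -0.52 on slide 1 and -0.40 between slides 3 and 2, and its groups overlapped. On slide 1 all 3 Sms probes were therefore lower with fipronil, whereas over the 12 arrays they did not share a sign.

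**Figure D2:**
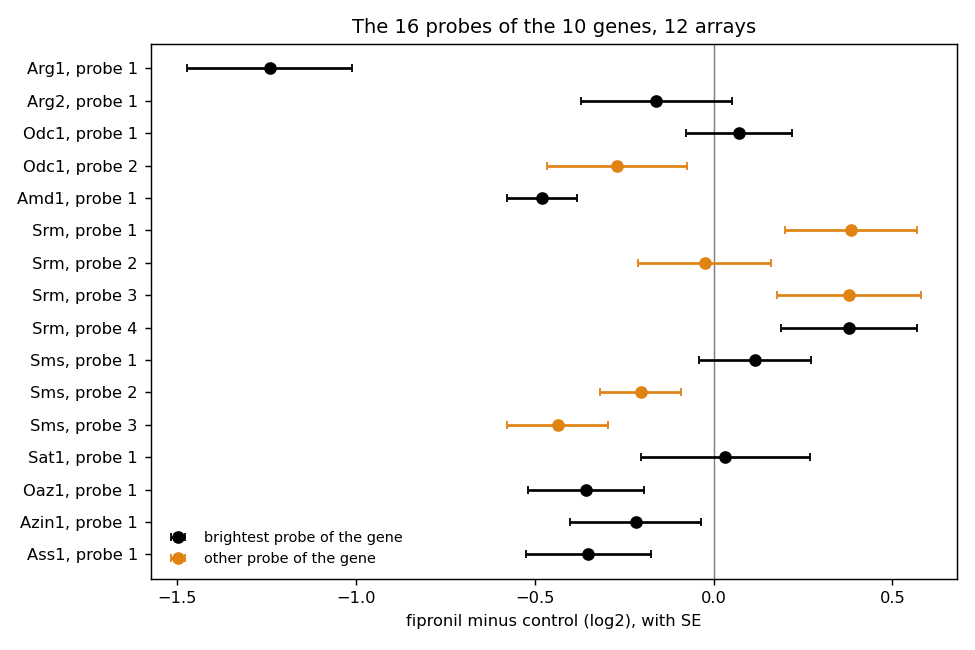
Difference in log2 signal, fipronil minus control over 12 arrays with its SE, for each of the 16 probes, the probe used for each gene in black and the others in orange. The Arg1 probe lies farthest from 0 at -1.24. Of 4 Srm probes 3 lie near 0.38 and the dimmest lies at -0.02. The Odc1 and Sms probes also lie on both sides of 0.

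Sat1, which acetylates spermidine and spermine ahead of their export or oxidation, differed in sign between slides. It read -1.01, -0.19 and 0.31 in fipronil samples (lowest, median and highest) and -0.88, -0.20 and -0.11 in controls. The means were -0.35 ± 0.53 in fipronil samples and -0.38 ± 0.32 in controls (SD, n = 6 each), a difference of 0.03 ± 0.24 (SE). On slide 1 fipronil was higher by 0.89, the highest slide 1 difference among the 10 genes, and between slides 3 and 2 the difference was -0.40. Samples of a single treatment also differed between slides, with fipronil samples of slide 3 at -0.67 relative to those of slide 1, and controls of slide 2 at 0.62 relative to those of slide 1.

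Across the 10 genes, slide 1 and slides 3 and 2 gave opposite signs for 7. They gave the same sign for 3, lower for Arg1 and Amd1 and higher for Srm, though Srm was at 0.0013 on slide 1. These signs are those of the brightest probes and depend on the probe. The second and the remaining Sms probe were lower in both comparisons, at -0.28 and -0.17, and at -0.52 and -0.40. The second Srm probe (-0.08 and 0.61) and the dimmest (0.03 and -0.05) had opposite signs, and the other Srm probe did not. The second Odc1 probe had opposite signs, as the brightest did. The share of signs that agreed in this way was not counted over all genes. The shift between slides within a treatment was of the same order as most of the differences. Fipronil samples of slide 3 minus those of slide 1 ran from -0.77 for Arg2 to 0.69 for Srm, and controls of slide 2 minus controls of slide 1 ran from -0.57 for Azin1 to 0.62 for Sat1. For Amd1 these shifts were -0.09 in fipronil samples and -0.10 in controls, and for Arg1 they were -0.36 in fipronil samples and -0.33 in controls. The median difference of the 10 genes was -0.19 over 12 arrays and 0.07 on slide 1, beside -0.08 and -0.02 over all 13542 genes. Of the 10 genes, 6 were below 0, as were 8088 of the 13542.

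**Figure D3:**
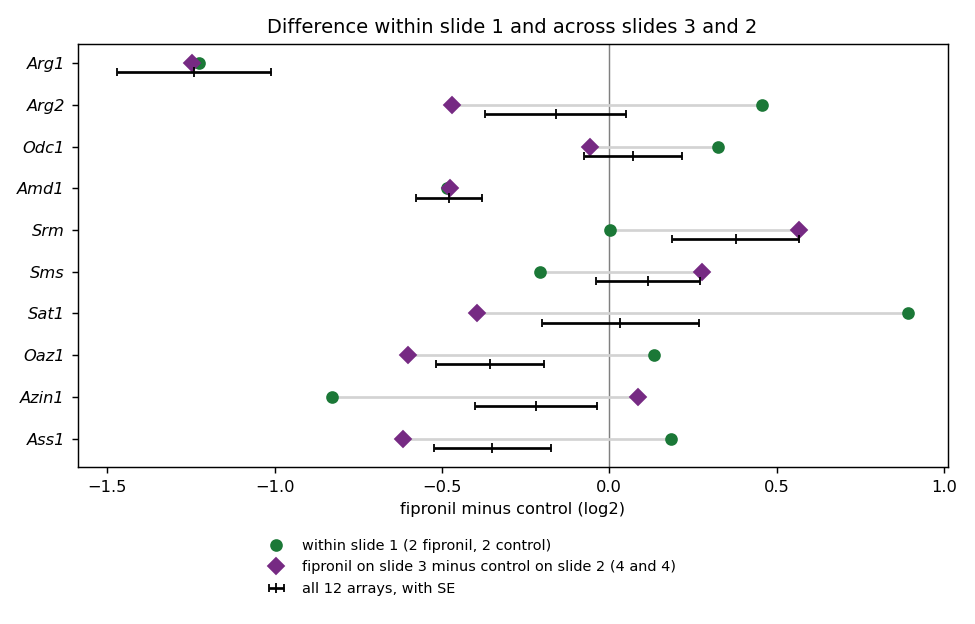
Fipronil minus control in log2 signal for the 10 genes, as measured within slide 1 (circles, 2 arrays a group), between slide 3 and slide 2 (diamonds, 4 arrays a group) and over all 12 arrays with SE (bars). Each gene is shown by its brightest probe. Circle and diamond coincide for Arg1 and Amd1 and lie on opposite sides of 0 for 7 genes.

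In the limma fit over all genes, with p-values adjusted over 13542, 5.01% of genes passed a threshold of 0.05, and 2.77% of genes passed it with a lower value in fipronil samples. Arg1 and Amd1 were the 2 of the 10 past that threshold, and 0 were higher. No overlap with fipronil lower was found for the same 2 genes and for 2.55% of all genes. Since the genes were chosen on this contrast, nothing is read from these counts. With slide as a fixed block, which draws the treatment difference from slide 1 alone, 0.0886% of all genes passed and 0 of the 10, with differences of -1.23 for Arg1 and -0.49 for Amd1. With slide as a random block 21 genes passed and again 0 of the 10. Oaz1 and Ass1 also passed, both lower, with the normexp background, its offset and 75th percentile scaling, beside 6777 of all 13542 genes. Ass1 passed as well without fipronil replicate 8, beside 2022 of all genes. Without control replicate 7, where 242 of all genes passed, Arg1 passed and Amd1 did not. The slide's part in these counts was not tested.

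Outside these 10 genes, 45 other genes of arginine and polyamine metabolism were listed in 5 groups, 31 of them could be tested, and 0 passed the threshold in either direction in the limma fit. At an unadjusted p under 0.05 there were 5 of the 31, Slc25a13, Slc7a1, Eif5a, Dohh and Dhps, beside 25% of all genes tested. Of the 31 differences 22 were below 0 (71%), beside 59.7% of all genes tested. The differences ran from -0.64 for the arginine transporter Slc7a1 (limma adjusted p 0.106, and -0.14 on slide 1) to 0.49 for the deoxyhypusine synthase Dhps (limma adjusted p 0.20, and -0.01 on slide 1). Slc25a13, a mitochondrial aspartate and glutamate carrier that feeds the Ass1 reaction, had the smallest adjusted p, 0.0551, with a difference of -0.57 ± 0.16 (SE) and -0.27 on slide 1. Its groups did not overlap. Slc25a13, Slc7a1 and Dhps are named here because their values were seen. In the fit with slide as a fixed block 0 of the 31 passed, and 18 of the 31 (58.1%) had on slide 1 the sign they had over 12 arrays, beside 58.7% of all genes tested.

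Eif5a was the listed target of spermidine itself: the translation factor eIF5A carries hypusine, an amino acid built from spermidine by the enzymes of Dhps and Dohh. Eif5a averaged 3.22 ± 0.35 in fipronil samples and 3.79 ± 0.22 in controls (SD, n = 6 each), a difference of -0.57 ± 0.17 (SE; limma adjusted p 0.0626). It was -0.19 on slide 1 and -0.75 between slides 3 and 2. Dohh, the hydroxylase of the last step, averaged 2.79 ± 0.35 in fipronil samples and 3.24 ± 0.11 in controls (SD, n = 6 each), a difference of -0.45 ± 0.15 (SE; limma adjusted p 0.0934) and -0.34 on slide 1. Dohh did not overlap between groups; with Slc25a13 that made 2 of the 31, both lower with fipronil, beside 2.55% of all genes. Dhps had a difference of the other sign over 12 arrays. The 4 genes of this list had a median difference of -0.43, and of -0.26 on slide 1.

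In the remaining groups the named genes are the 2 with the highest mean signal in each list. Among urea cycle genes, Asl, which releases arginine from argininosuccinate, differed by 0.03 ± 0.19 (SE; limma adjusted p 0.927), with 0.68 on slide 1. The ornithine carrier Slc25a15 differed by 0.01 ± 0.10 (SE; limma adjusted p 0.955), with -0.05 on slide 1. Of 7 genes in that list 3 could be tested, with a median of 0.01, and of -0.05 on slide 1. Of 14 users of arginine and ornithine, 8 could be tested, with a median of -0.22 over 12 arrays and 0.55 on slide 1, so its sign turned on the slide with both treatments. There the ornithine aminotransferase Oat differed by -0.21 ± 0.11 (SE; limma adjusted p 0.231), with -0.31 on slide 1, and the proline pathway dehydrogenase Aldh4a1 by -0.23 ± 0.18 (SE; limma adjusted p 0.439), with -0.14 on slide 1. Among polyamine breakdown, antizyme and transport genes, 8 of 12 could be tested, and the sign of their median turned in the same way, with -0.16 over 12 arrays and 0.26 on slide 1. Another antizyme gene, Oaz2, differed by -0.33 ± 0.19 (SE; limma adjusted p 0.287), with -0.06 on slide 1. In the same list Slc3a2, the heavy chain of several amino acid transporters, differed by -0.24 ± 0.24 (SE; limma adjusted p 0.553), with 0.38 on slide 1. All 8 methionine cycle and salvage genes were tested, with a median of -0.16, and of -0.09 on slide 1. Ahcy, which removes S-adenosylhomocysteine, differed by -0.23 ± 0.13 (SE; limma adjusted p 0.289), with 0.05 on slide 1, and the salvage enzyme Apip by -0.05 ± 0.12 (SE; limma adjusted p 0.826), with -0.14 on slide 1.

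**Figure D4:**
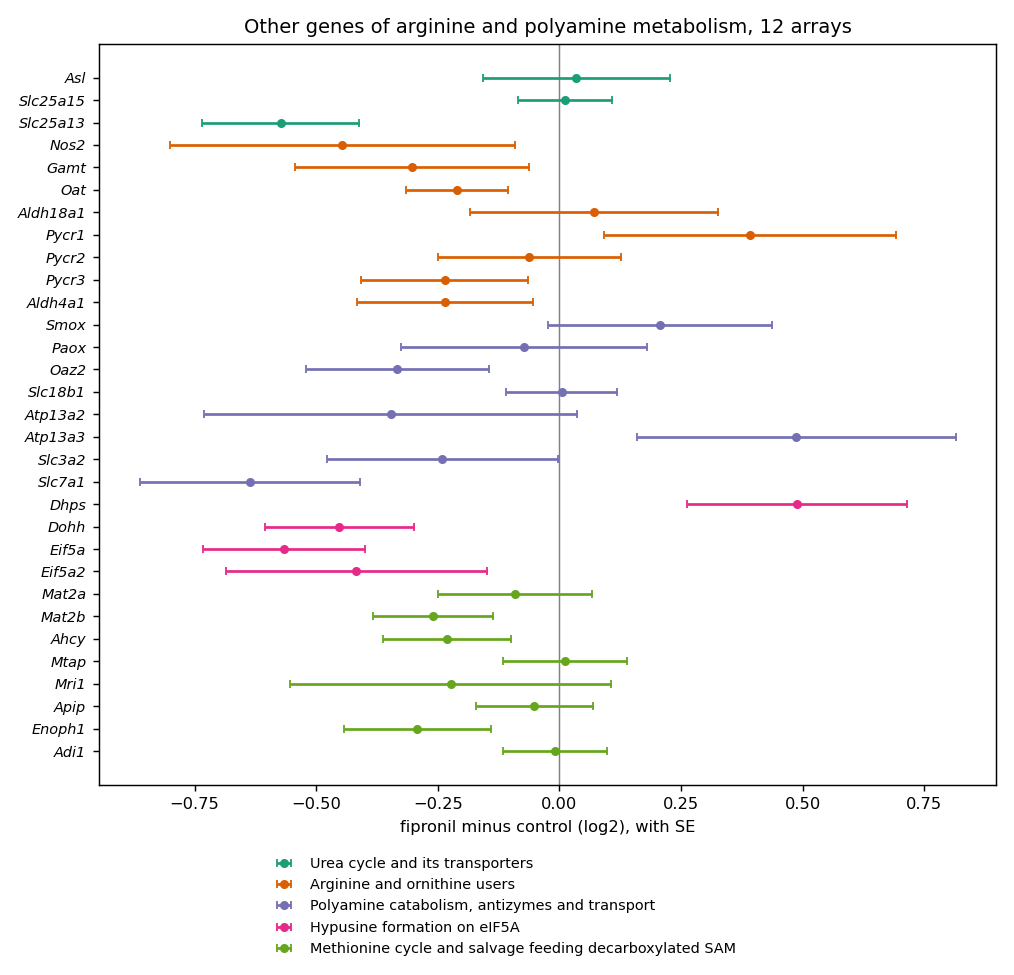
Fipronil minus control in log2 signal with SE over 12 arrays for the 31 tested genes of the 5 other lists, coloured by list. Differences run from -0.64 for Slc7a1 to 0.49 for Dhps, and none passed the adjusted threshold of 0.05.

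The genes with a symbol whose signals were most like those of Arg1 over the 12 arrays were Arf4, Rheb, Cnep1r1, Wdr43 and Naa25. Pearson's r with Arg1 was 0.954 for Arf4, a small GTPase of membrane traffic, 0.947 for Rheb, the GTPase that activates mTORC1, 0.942 for Cnep1r1, 0.938 for Wdr43 and 0.933 for Naa25. Spearman's rho was 0.895, 0.867, 0.853, 0.79 and 0.902 for the 5 genes in that order. All 5 were lower in each fipronil sample than in any control, so these values hold the difference between treatments, and the genes share slides, arrays and scaling. Over deviations from the group means, r was 0.837 for Arf4, 0.841 for Rheb, 0.897 for Cnep1r1, 0.761 for Wdr43 and 0.801 for Naa25. Without the 2 arrays farthest from the Arg1 median, fipronil replicate 3 and control replicate 2, r was 0.922, 0.921, 0.815, 0.92 and 0.879 in the same order. Within the 6 controls alone r was 0.255 for Rheb and 0.852 to 0.96 for the other 4. The 6 include control replicate 2, and the r over deviations includes both far arrays. Neither r was computed without them.

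Amd1 correlated with Arg1 at r = 0.788 (n = 12 arrays) and at 0.03 over deviations from the group means, so the pooled value rests on the difference between treatments. For the other 8 genes r with Arg1 ran from -0.47 for Srm to 0.59 for Oaz1. These correlations describe 12 arrays in 2 groups and carry no test.

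Of the 10 genes, 7 were matched by symbol to RefSeq promoter sequences of GRCr8, all but Arg1, Arg2 and Azin1. The 250 bases before the start are shown for Amd1 and Srm. The enzyme of Amd1 supplies the decarboxylated S-adenosylmethionine from which Srm takes its aminopropyl group. Over all arrays their differences had opposite signs, -0.48 for Amd1 and 0.38 for Srm, though Srm was at 0.0013 on slide 1. Capitals mark TATAAA in Amd1 (chr20:45265983-45266232, minus strand) and CACGTG in Srm (chr5:164308752-164309001, plus strand).
Amd1 promoter: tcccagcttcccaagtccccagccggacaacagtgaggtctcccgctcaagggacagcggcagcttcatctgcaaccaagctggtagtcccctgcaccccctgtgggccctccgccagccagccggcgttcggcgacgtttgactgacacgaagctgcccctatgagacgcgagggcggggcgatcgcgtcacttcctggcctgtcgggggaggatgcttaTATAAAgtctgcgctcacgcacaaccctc
Srm promoter: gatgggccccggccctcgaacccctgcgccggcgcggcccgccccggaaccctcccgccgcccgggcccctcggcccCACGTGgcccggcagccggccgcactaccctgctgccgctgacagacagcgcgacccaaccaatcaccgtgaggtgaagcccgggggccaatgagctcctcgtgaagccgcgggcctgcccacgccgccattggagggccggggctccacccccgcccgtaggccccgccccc
Searched on both strands, TATAAA occurred in the same window of 3 of the 7 genes, Amd1, Oaz1 and Ass1, and of 12.9% of 33469 promoters. CACGTG, an E-box sequence, occurred in Srm and Oaz1 and in 5.59% of all promoters. CCAAT occurred in the same 2 genes and in 34.0% of promoters, and GGGCGG in 6 of the 7, all but Ass1, and in 30.5%. None of the 4 motifs contains another, and a match describes the letters alone.

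**Figure D5:**
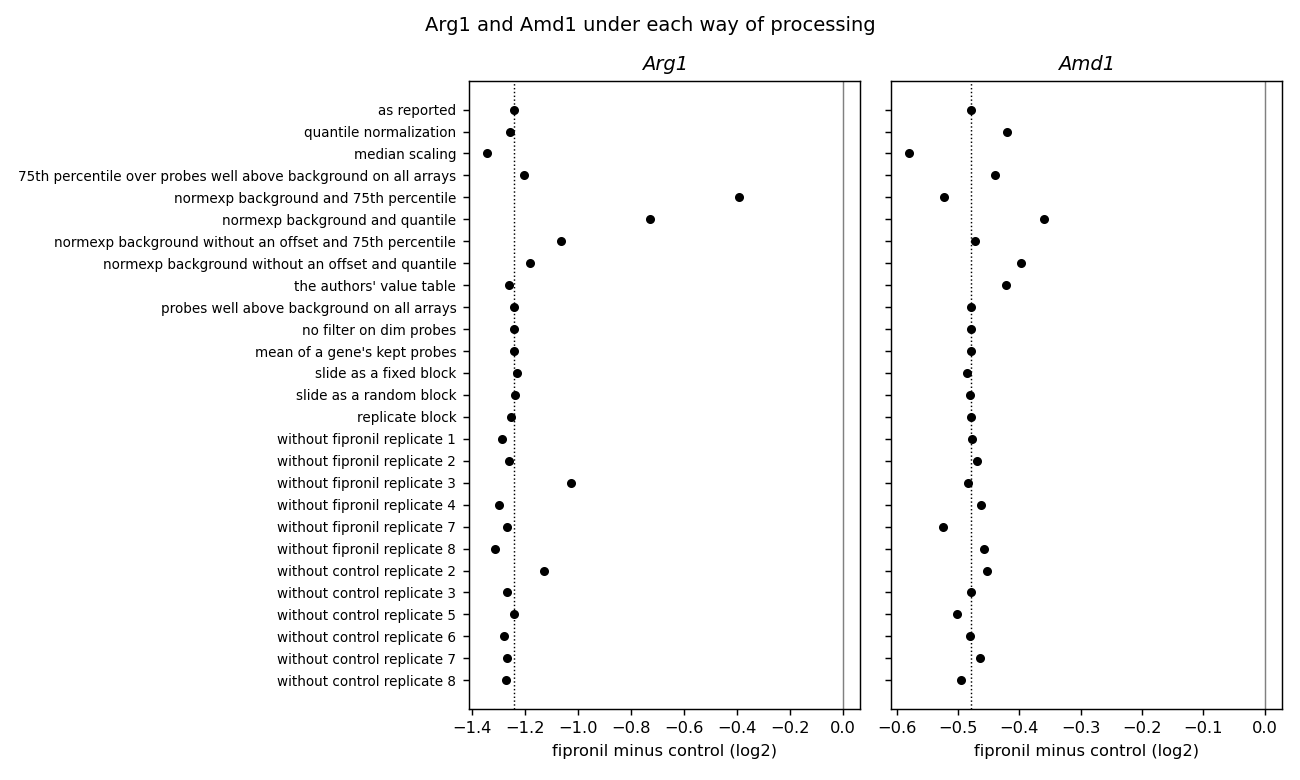
Fipronil minus control in log2 signal for Arg1 (left) and Amd1 (right) as reported and under 26 other ways of processing, with a dotted line at the reported value. All Arg1 values lie below 0, from -1.34 with median scaling to -0.39 with a normexp background, its offset and 75th percentile scaling, and all Amd1 values lie between -0.58 and -0.36.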

How the data were processed

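The authors read the spots with Agilent Feature Extraction, in version 10.7 according to the submitters' processing notes. The processed signal is, per the file headers, an intensity after background subtraction and detrending, unscaled across arrays. The mean signal and the local background are raw intensity, per the file headers. The flags for outlier, saturated and well above background are other values of 0 or 1, per the file headers. A deposited series-wide table gives log2 values, quantile-normalized by the authors, with a median of 2.63 on the first array and a floor of 1.5. It was used as an alternative.

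Processed signals were converted to log2, and each array's 75th percentile over all spots that were not controls, outliers included, was subtracted. Outlier spots were then left out of a probe's mean, unless every spot of that probe was marked on that array. Probes with a single spot, such as those of Arg1 and Amd1, would thus keep their value even if marked. A probe was kept when well above background on at least 6 of 12 arrays, and the brightest kept probe stood for its gene. Genes were named from the RefSeq annotation of GRCr8. Probe positions in the array files refer to an older assembly, so chromosomes alone are given for genes. Fipronil and control were compared using limma 3.58.1 under R 4.3.3 (linear model with empirical Bayes moderation, two-sided). The package data.table was version 1.17.8, and p-values were adjusted over 13542 genes by Benjamini-Hochberg; the procedure was tested on simulated data. Precision is limited by having 6 arrays a group.

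The 10 genes and the 5 other lists were chosen with earlier results of these data known. Besides the 10 genes, named genes were listed genes past the threshold or, in a list with none, the 2 with the highest mean signal, and the 5 genes with the highest Pearson r with Arg1. Both groups have replicates numbered 2, 3, 7 and 8. Over genes, deviations from the group means correlated between same-numbered arrays at 0.43, 0.08, -0.11 and -0.31. Same-numbered arrays never shared a slide, so these values also hold shifts between slides and cannot show whether the numbers pair. Whether they do is not known, and the numbers were not used as pairs in the fit as reported. The alternatives were other scalings, a normexp background (offset 50, and without an offset, added after seeing the data), the deposited log2 table, other filters, the mean of a gene's probes, slide as a fixed or random block, a replicate block, and leaving out each array.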

Additional observations from a re-analysis of the deposited data

Results flagged for a closer look

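For the 10 genes, 20 groups of 6 arrays were searched for an array far from the others, and 2 held one, where chance gives about 1 in 20. Both belonged to Arg1. Fipronil replicate 3 had a log2 signal of -3.51, with the nearest fipronil array at -2.35, and its processed signal was 1.12 times the lowest one called well above background on that array. Control replicate 2 had -0.627, with the nearest control at -1.20. Without fipronil replicate 3 the Arg1 difference was -1.03, and without control replicate 2 it was -1.13.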

How the results depend on the processing

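Over 26 alternatives Arg1, Amd1, Srm and Azin1 kept the sign of their difference, though Srm was at 0.0013 with slide as a fixed block. Oaz1 and Ass1 changed the sign under 1, that same block. Arg2 changed it under 3, Sms and Odc1 under 4 and Sat1 under 6. The difference ran from -1.34 to -0.39 for Arg1 and from -0.58 to -0.36 for Amd1, and without 1 array from -1.31 to -1.03 and from -0.52 to -0.45. The median of the 10 genes was 0.068 with slide as a fixed block, against -0.19 as reported, and ran from -0.22 to -0.14 without 1 array. On slide 1 the median ran from -0.16 to 0.31 without 1 array.

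The count of all genes past the threshold, 678 as reported, was 6777 with 75th percentile scaling after a normexp background; that setting put the median over all genes at 0.17. Without the offset of 50, an alternative chosen after seeing the data, it was 1091. It was 16313 of 36181 with no filter on dim probes, 21 with slide as a random block and 12 with it as a fixed block. It ran from 228 (without fipronil replicate 3) to 2022 (without fipronil replicate 8). The share of higher calls was 44.7% as reported, 25.6% with median scaling and 60.8% with the 75th percentile over probes well above background on all arrays. It was 75.5% with normexp, its offset and the 75th percentile, 61.6% without the offset, and 92.5% with no filter. The fixed block takes its difference from 2 arrays a group. 

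As reported, 0 of the 31 tested other pathway genes passed, beside 678 of all 13542 genes. With normexp, its offset and the 75th percentile 12 of 31 passed, beside 6777 of all genes, and with quantile 2, beside 1015. Without the offset 2 passed under either scaling, beside 1091 and 798 of all genes. With probes well above background on all arrays 2 of 27 passed, beside 965 of 10609 genes. With no filter 14 of 45 passed, beside 16313 of 36181 genes. Without 1 array, 0 to 3 of the 31 passed, beside 228 to 2022 of all genes. With the replicate number as a block, 924 genes passed, 678 of them shared, with 1 other pathway gene (Slc25a13). Arg1 and Amd1 were among the 924, and whether the numbers pair the arrays is not known. The cause of these shifts was not tested.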
